A study of Mus musculus with 5 samples.

Results

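Dppa2, Dppa4 and Dppa5 are the 3 genes examined here out of 15597 genes with at least 1 read in the series. They were taken by name, as the rows called Dppa2, Dppa4 and Dppa5, and a row that a plate did not list was counted as 0 reads. All 3 rows were present in each of the 3 embryonic stem (ES) cell plates, 2 were present in the Neuro2A plate and 1 in the fibroblast plate. The study sequenced mRNA from single mouse cells, sorted 1 per well into plates of 96 wells. There were 3 plates of ES R1 cells (ES replicates 1, 2 and 3), a mouse embryonic stem cell line described in the labels as stem cell-derived spheres. There was 1 plate of Neuro2A, a mouse neuroblastoma line, and 1 plate of mouse embryonic fibroblasts (MEF). None of the cells carried a stated genetic change or drug treatment, and the labels give no strain, age or passage and do not say whether the ES plates came from separate cultures. P-values over plates therefore measure only the spread between plates, which may be technical.

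Dppa stands for developmental pluripotency associated, a name given to genes found in early embryos, germ cells and pluripotent stem cells and switched off in most other cells. DPPA2 and DPPA4 are related nuclear proteins with a SAP domain, a DNA-binding fold. They bind each other and chromatin, and in mouse ES cells they are needed for the activation of some early embryonic genes and for keeping some CpG-rich promoters free of DNA methylation. Dppa5, also called Esg1, is not related to them by sequence. It encodes a small protein with a KH domain, a fold that binds RNA, and it is a common marker of mouse ES cells and germ cells.

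The plates differed in depth. Reads on genes summed to 11434036, 277068 and 2135379 in ES replicates 1, 2 and 3, to 3160286 in Neuro2A and to 2932933 in MEF. A well entered the comparisons from 1000 gene reads upward, a rule met by 93, 66 and 94 ES wells, 86 Neuro2A wells and 92 MEF wells. That is 431 of the 480 wells with reads, beside the 436 cells that the study states. In ES replicate 2 repeats took 82.4% of reads and 1 well held 25.9% of the gene reads. The 96 barcodes were the same on every plate. All 10 ES markers (Pou5f1, Sox2, Nanog and others) were higher in each ES plate than in Neuro2A and MEF, and their summed level ran from 4320 to 6243 CPM (the usual read count scaled to a fixed total of gene reads per plate) on ES plates, against 0.317 CPM on the Neuro2A plate and 1.71 CPM on the MEF plate. The summed level of 14 fibroblast markers was 817, 1851 and 4831 CPM in ES replicates 1, 2 and 3, with 2, 7 and 14 of them read, against 30838 CPM in MEF and 591 in Neuro2A. Neuroblastoma markers summed to at most 229 CPM in an ES plate and to 2143 CPM in Neuro2A. The part of these reads in the levels below was not tested.

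All 3 Dppa genes were read in every ES plate and were at or near 0 in Neuro2A and MEF. Dppa5, the RNA-binding member, was at 2904 CPM in ES replicate 1, 1059 CPM in ES replicate 2 and 5140 CPM in ES replicate 3, a mean of 3034 ± 2044 CPM (SD, n = 3). It had 1 read among 86 wells in Neuro2A, which is 0.317 CPM, and 0 reads in MEF. ES replicate 3 was the highest and ES replicate 2 the lowest, the exact Poisson intervals of the ES plates, which cover counting error only and take reads as independent molecules, did not overlap, and every ES plate lay far above the other plates. The ES mean was 9574 times the Neuro2A level, with a 95% interval from 1718 to 378153 that covers only the counting error of the single read, and at least 2965-fold higher than MEF when MEF is set to a floor of 3 reads.

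Dppa4, the SAP-domain partner of Dppa2, was at 620 CPM in ES replicate 1, 244 CPM in ES replicate 2 and 97.5 CPM in ES replicate 3. The mean was 320 ± 270 CPM (SD, n = 3), and both Neuro2A and MEF had 0 reads. The order of the ES plates differed from that of Dppa5: ES replicate 1 was the highest for Dppa4 and ES replicate 3, the highest for Dppa5, was the lowest. Against the floor of 3 reads, the ES mean was at least 337-fold higher than Neuro2A and at least 313-fold higher than MEF.

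Dppa2 was at 66.2 CPM in ES replicate 1, 72.4 CPM in ES replicate 2 and 53.9 CPM in ES replicate 3, a mean of 64.2 ± 9.42 CPM (SD, n = 3). Its exact Poisson intervals overlapped between the ES plates, which does not by itself show equal levels, and the order of the ES plates was not tested. Neuro2A had 3 reads in 2 wells (0.951 CPM) and MEF had 1 read (0.341 CPM). The ES mean was 67.5 times the Neuro2A level (interval 23.1 to 327) and 188 times the MEF level (33.7 to 7427). The Dppa2 level in the ES plates rested on few wells: without the well that held most of its reads on each plate, the ES mean was 40.9 CPM. CPM are not divided by transcript length, so the levels of the 3 genes are not compared with each other.

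**Figure D1:**
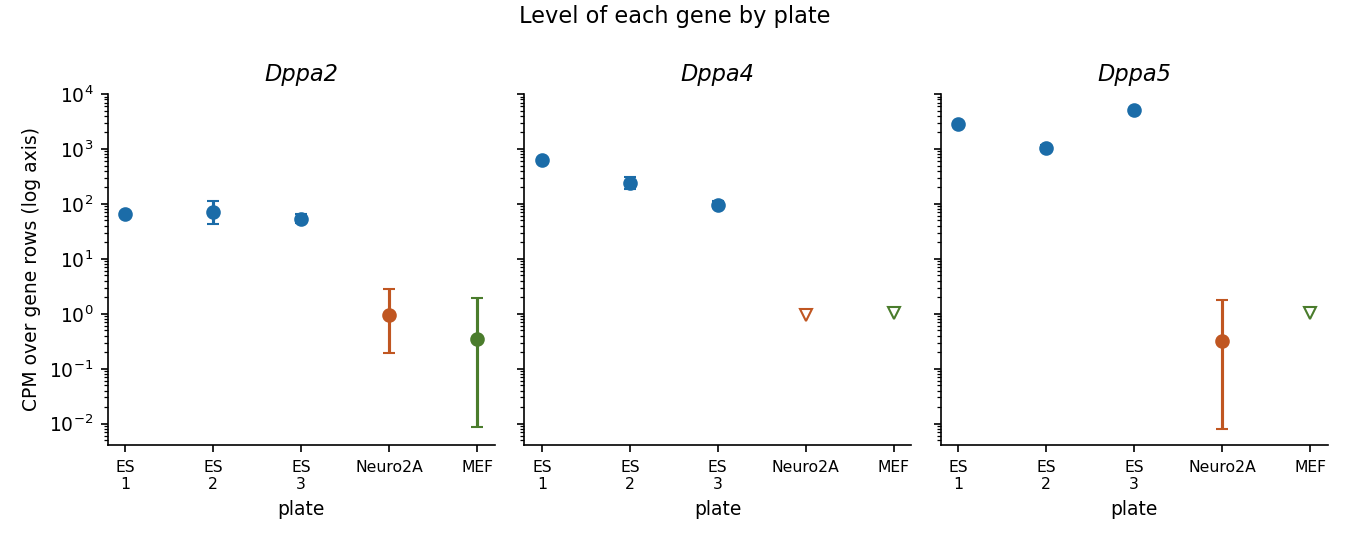
Level of Dppa2, Dppa4 and Dppa5 in each plate, in CPM over gene reads on a log axis, with exact 95% Poisson intervals as bars. Open triangles mark the floor of 3 reads where a plate had 0 reads. The ES plates (blue) sit between 53.9 and 5140 CPM and the Neuro2A and MEF plates at or under about 1 CPM.

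The few reads outside the ES plates were traced to their wells. Of the 3 Dppa2 reads in Neuro2A, 2 lay in a well whose barcode carried 22 Dppa2 reads in ES replicate 1 and 4 in ES replicate 3. The other Neuro2A read and the single MEF read had the same barcode, which carried 2 Dppa2 reads in ES replicate 3. The single Dppa5 read in Neuro2A lay in the deepest well of that plate, with 203348 gene reads, and its barcode carried 1103, 6 and 54 Dppa5 reads in ES replicates 1, 2 and 3. Most barcodes carried Dppa5 in the ES plates, where it was read in 88 of 93, 54 of 66 and 94 of 94 kept wells. Whether the few reads outside the ES plates were carried over between plates was not tested.

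Each gene was higher in every ES plate than in Neuro2A and in MEF. Of the 12271 genes tested, 19.7% showed the same order, and 6.01% did so with at most 3 reads in each of the other plates, as these 3 genes did. The order against a single plate was more common: 31.5% of genes were higher in every ES plate than in MEF and 30.9% than in Neuro2A. In edgeR's quasi-likelihood test on plate sums with Benjamini-Hochberg adjustment, none of the 3 passed 0.05. Adjusted p was 0.519 for Dppa2, 0.472 for Dppa4 and 0.472 for Dppa5 against MEF, and 0.364, 0.215 and 0.177 against Neuro2A. This test called 0 of 12271 genes in either comparison (percent called 0), while 1028 genes against MEF and 1525 against Neuro2A had an unadjusted p under 0.05. Unadjusted p was 0.0206, 0.00261 and 0.000791 for Dppa2, Dppa4 and Dppa5 against MEF and 0.0274, 0.00215 and 0.000951 against Neuro2A, in a direction (higher in ES) in which 4.21% and 8.38% of genes passed. DESeq2 called all 3 genes higher in ES. Its adjusted p was 0.0188 for Dppa2, 0.000297 for Dppa4 and 8.15e-08 for Dppa5 against MEF, where it called 3.22% of genes higher, and 0.00755, 6.74e-05 and 4.07e-10 against Neuro2A, where it called 8.78% higher. With ES replicate 1 left out, edgeR called Dppa4 (adjusted p 0.00202 against MEF and 0.000239 against Neuro2A) and Dppa5 (6.67e-06 and 1.95e-06). In that setting 11762 genes were tested and 645 and 1438 were called in all. Of those called, 213 were higher and 432 lower in ES against MEF, and 1016 higher and 422 lower against Neuro2A. Neuro2A and MEF had 1 plate each, so the spread in these tests came from the ES plates alone.

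The genes differed in how many ES cells showed a read. Dppa5 was read in 88 of 93 kept wells of ES replicate 1 (94.6%, exact binomial 95% interval 87.9 to 98.2), in 54 of 66 of ES replicate 2 (81.8%, 70.4 to 90.2) and in 94 of 94 of ES replicate 3. Dppa4 was read in 44 of 93 wells (47.3%, 36.9 to 57.9), 9 of 66 (13.6%, 6.43 to 24.3) and 30 of 94 (31.9%, 22.7 to 42.3). Dppa2 was read in 25 of 93 wells (26.9%, 18.2 to 37.1), 5 of 66 (7.58%, 2.51 to 16.8) and 25 of 94 (26.6%, 18.0 to 36.7). So Dppa5 was read in most ES wells of each plate, while Dppa2 and Dppa4, each taken alone, were read in fewer than 50% of them. In MEF, 0 of 92 wells had a read of Dppa4 or of Dppa5, which allows a share of wells with a read of up to 3.26%, and 1 well had Dppa2. In Neuro2A, 0 of 86 wells had Dppa4, which allows up to 3.49%, 1 well had Dppa5 and 2 had Dppa2. These intervals and limits cover counting error only.

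Depth moved with these shares. In ES replicate 1 the wells with a Dppa4 read had a median of 121900 gene reads and those without 64611, and in ES replicate 3 the medians were 32033 and 14104. For Dppa2 they were 112090 and 98825 in ES replicate 1 and 34569 and 14112 in ES replicate 3. Depth also went with the barcode of the well, as given below. The 5 wells of ES replicate 1 without Dppa5 were shallow, with a median of 9183 gene reads against 103262 in the wells that had it. Every kept well was therefore thinned to 1000 gene reads. Dppa5 was then read in 62 of 93, 43 of 66 and 84 of 94 ES wells, a mean share of 73.7% ± 13.6 (SD, n = 3). Dppa4 was read in 14, 6 and 7 wells (10.5% ± 4.0) and Dppa2 in 4, 2 and 3 wells (3.51% ± 0.692). No thinned Neuro2A or MEF well held a read of any of the 3. For each gene, the exact two-sided permutation test of the 3 ES shares against the 2 other shares gave p = 0.2. That is the smallest value this test, which doubles the smaller tail, can give with 3 plates against 2. A well without a Dppa2 or Dppa4 read at this depth is not shown to lack the transcript.

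The level in single wells followed different patterns. For Dppa5 the median well was at 1792 CPM in ES replicate 1, 1198 CPM in ES replicate 2 and 3183 CPM in ES replicate 3, and the highest wells reached 6165, 7022 and 12864 CPM. The coefficient of variation of CPM across wells was 0.817, 0.929 and 0.737. Dppa5 reads were spread over many cells, since the highest well held 7.77%, 8.99% and 10.1% of the reads of its plate. For Dppa4 the median well was at 0 in each ES plate and the highest at 10222, 7120 and 3715 CPM, with coefficients of variation of 3.06, 4.42 and 3.55. The highest well held 14.7%, 34.4% and 15.4% of the Dppa4 reads, and 4, 2 and 6 wells together held at least 50% of them in ES replicates 1, 2 and 3. For Dppa2 the median was also 0, the highest wells were at 1577, 938 and 2266 CPM, and the coefficients of variation were 4.11, 4.22 and 4.31. A single well held 423 of the 757 Dppa2 reads of ES replicate 1 (55.9%) and another held 10 of the 19 reads of ES replicate 2 (52.6%). Without molecular identifiers, many reads in a well can be copies of few molecules made in PCR.

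The spread was set against that of other genes of like mean, at 1000 reads per well: the squared coefficient of variation was logged, a smooth curve was drawn through it over the logged mean, and the residual is the height above (positive) or below (negative) that curve. Dppa5 was below the trend in ES replicate 1 (residual -0.65, percentile 8.33 of 2401 genes) and in ES replicate 2 (-0.25, percentile 22.2 of 2936). It was above the trend in ES replicate 3 (0.29, percentile 79.2 of 3343). In that plate its mean was the sixth highest among the genes ranked. Dppa4 was above the trend in ES replicates 1 and 2 (0.31 and 0.44, percentiles 72.7 and 85.2) and below it in ES replicate 3 (-0.15, percentile 29.6). That last value rests on 7 wells with a Dppa4 read, and the side of the trend turned with depth: as deposited, Dppa4 was above it in all 3 plates (0.49, 1.05 and 0.78, percentiles 75.1, 96.2 and 88.3), and at 2000 reads per well its mean residual was 0.74. Dppa5 as deposited was again below the trend in ES replicates 1 and 2 (-1.14 and -0.45) and above it in ES replicate 3 (0.59). Dppa2 was read in under 5% of thinned wells and got no residual.

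**Figure D2:**
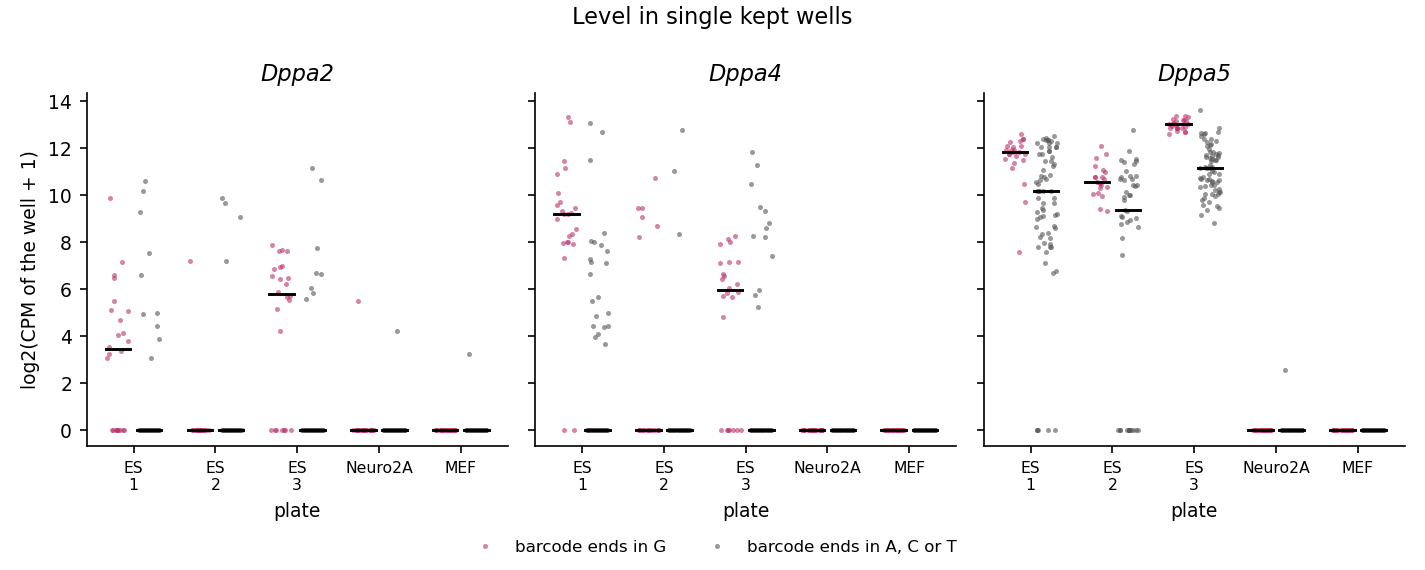
CPM of Dppa2, Dppa4 and Dppa5 in each kept well, as log2(CPM + 1), by plate and by the last base of the well's barcode (pink, G, and grey, A, C or T). Each point is 1 well and black lines are medians. In each ES plate the median Dppa5 level of wells with a barcode ending in G lies above that of the other wells (3688 against 1162 CPM in ES replicate 1). Most Dppa2 and Dppa4 wells lie at 0, except among the G wells of ES replicates 1 and 3, whose medians lie above 0.

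Part of the spread went with the barcode of the well, a technical label and not a cell state. The barcode stood directly before the riboguanines of the template-switching oligo, and kept wells fell into those whose barcode ended in G (24, 21 and 24 wells in ES replicates 1, 2 and 3) and the others. Dppa5 was higher in the G wells of each ES plate: 4172 against 2327 CPM in ES replicate 1, 1791 against 767 CPM in ES replicate 2 and 8244 against 2639 CPM in ES replicate 3. The ratios were 1.79, 2.33 and 3.12, at percentiles 86.8, 92.3 and 99.2 of 1429 genes whose median ratios were 1.00, 1.11 and 0.995. In ES replicate 2 the other wells included the deepest well, with 25.9% of the gene reads of the plate and Dppa5 at 177 CPM. The median well of that plate was at 1521 CPM in G wells and 673 CPM in the others. The coefficient of variation of Dppa5 within G wells was 0.398, 0.517 and 0.154, against 0.982, 1.17 and 0.757 in the other wells. These values were not adjusted for level. The Dppa5 level was higher in G wells in 3 of 3 plates, with an exact two-sided permutation p of 0.25, the smallest that 3 plates allow. The Dppa5 level in the other wells alone was 1911 CPM (mean of the 3 plates), beside 3034 CPM over all wells.

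Dppa4 and Dppa2 also differed by barcode in how often they were read. Dppa4 had a read in 22 of 24 G wells and 22 of 69 other wells of ES replicate 1, in 6 of 21 and 3 of 45 of ES replicate 2, and in 17 of 24 and 13 of 70 of ES replicate 3. After thinning, the Dppa4 share was 45.8%, 23.8% and 8.33% in G wells and 4.35%, 2.22% and 7.14% in the others, so the gap was wide in ES replicates 1 and 2 and narrow in ES replicate 3. Dppa2 had a read in 15 of 24 G wells and 10 of 69 other wells of ES replicate 1 and in 17 of 24 and 8 of 70 of ES replicate 3. In ES replicate 2 the order was turned, with 1 of 21 G wells and 4 of 45 others. The summed levels did not follow the same split. Dppa4 was at 1294 CPM in G wells and 313 CPM in the others of ES replicate 1, at 160 and 277 CPM in ES replicate 2 and at 94.5 and 99.8 CPM in ES replicate 3, so it was higher in G wells in 1 of 3 plates. Dppa2 was at 38.6 and 78.8 CPM, 13.4 and 95.9 CPM, and 95.6 and 20.3 CPM, also higher in G wells in 1 of 3 plates. Single wells weighed on these sums. A single well not ending in G held 423 of 757 Dppa2 reads in ES replicate 1, and another 10 of 19 in ES replicate 2. The median G well was at 591, 0 and 61.7 CPM for Dppa4 and at 9.97, 0 and 54.6 CPM for Dppa2. The median of the other wells was 0 for both genes in each plate. The higher share of wells was general across genes: 99.8%, 94.5% and 99.4% of the 1429 genes were read in a higher share of G wells. Thinned G wells also held more genes, a median of 612, 715 and 728 against 379, 498 and 589 in the other wells. Median gene reads per well were also higher in G wells, at 103262 against 98842 in ES replicate 1, 2874 against 2132 in ES replicate 2 and 33225 against 14104 in ES replicate 3. The other wells were also split at the median depth of their plate. Dppa2 was read in 11.8%, 11.1% and 11.1% of the deeper ones and in 17.1%, 7.41% and 11.6% of the shallower ones. For Dppa4 the shares were 41.2%, 16.7% and 25.9% against 22.9%, 0% and 14.0%. The part of the barcode in the differences between single cells described above was not tested beyond these values.

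**Figure D3:**
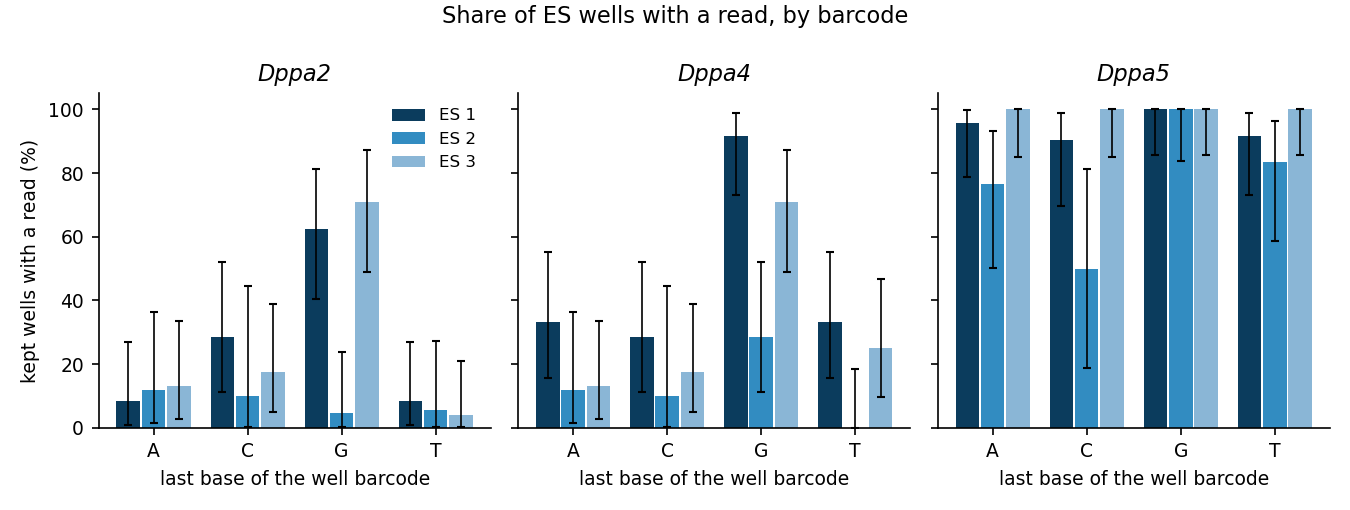
Share of kept ES wells with at least 1 read of each gene, in percent, by the last base of the well's barcode, with bars for ES replicates 1, 2 and 3 and exact binomial 95% intervals. For Dppa4 the bars at G stand at 91.7%, 28.6% and 70.8%, above the bars at the other bases in each plate. For Dppa2 this holds in ES replicates 1 and 3 and is turned in ES replicate 2.

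Dppa2 and Dppa4, whose proteins act as a pair, were often read in the same wells before depth and barcode were taken into account. In ES replicate 1, 20 of the 25 wells with Dppa2 also had Dppa4 (80.0%), against 35.3% of the wells without Dppa2. In ES replicate 3 it was 16 of 25 wells (64.0% against 20.3%), and in ES replicate 2 it was 1 of 5 (20.0% against 13.1%). Most of these wells had a barcode ending in G, 15 of the 20 in ES replicate 1 and 15 of the 16 in ES replicate 3. Among the other wells, 5 of 10 wells with Dppa2 had Dppa4 in ES replicate 1 (50.0% against 28.8%), 1 of 4 in ES replicate 2 (25.0% against 4.88%) and 1 of 8 in ES replicate 3 (12.5% against 19.4%). Among the deeper of these wells, those at or above the median depth of their plate, it was 3 of 4 (75.0% against 36.7%), 1 of 2 (50.0% against 12.5%) and 1 of 3 (33.3% against 25.0%). These counts rest on few wells and were not tested. Wells thinned to 1000 reads held Dppa2 too rarely (4, 2 and 3 wells) to bear on joint reading. Every well with Dppa2 in any ES plate also had Dppa5, which was read in 80.3% to 100% of the wells without Dppa2.

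The Dppa5 count is uncertain because the mouse genome holds near-identical copies of the gene. RefSeq annotates 2 of them, the pseudogenes Dppa5b and Dppa5c, close to the Dppa5 gene (Dppa5a) on chromosome 9. Rows named after their Entrez numbers, LOC666367 and LOC666373, were present in the files. The Dppa5c row was at 1017, 792 and 1271 CPM in ES replicates 1, 2 and 3 and the Dppa5b row at 317, 141 and 587 CPM. Neuro2A had 0 reads on either and MEF had 1 read on Dppa5c, so both followed the ES plates as Dppa5 did. The copies took 31.5%, 46.8% and 26.6% of the reads of the 3 rows together. Their share was lower in wells with a barcode ending in G, at 24.4%, 30.2% and 20.5%, than in the other wells, at 36.4%, 56.5% and 38.3%. Summed over the 3 rows, the level was 4238, 1992 and 6998 CPM, a mean of 4409 ± 2507 CPM (SD, n = 3). In G wells this sum was at 5515, 2566 and 10372 CPM, and in the other wells at 3656, 1764 and 4280 CPM. G wells were thus still higher in each plate, by a smaller ratio than for Dppa5 alone. A read of any of the 3 was found in 89 of 93, 61 of 66 and 94 of 94 wells, and 7 wells of ES replicate 2 had reads on the copies alone. How the deposited counting divided reads between the gene and its copies is not given in the sources used here, and transcription of the copies was not tested.

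**Figure D4:**
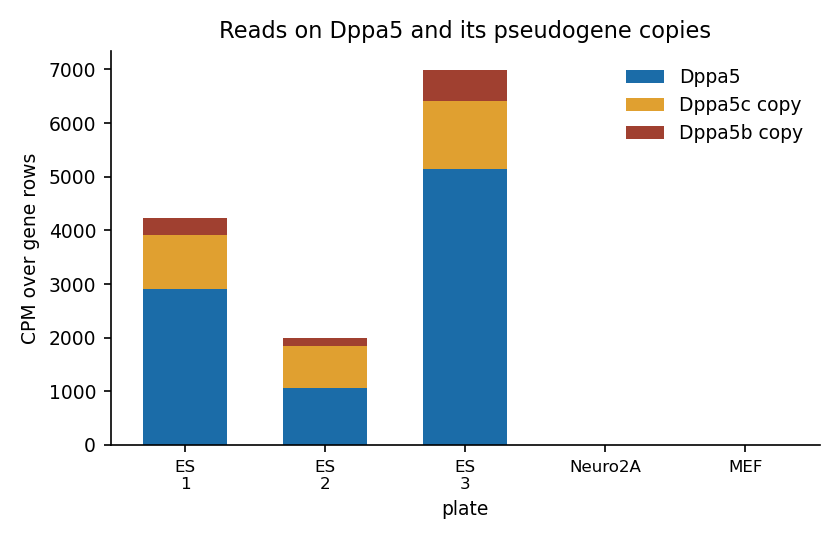
CPM over gene rows of Dppa5 (blue) and of its pseudogene copies Dppa5c (yellow) and Dppa5b (red), stacked, by plate. The stacks reach 4238, 1992 and 6998 CPM in ES replicates 1, 2 and 3, of which the copies make up 31.5%, 46.8% and 26.6%, and are near 0 in Neuro2A and MEF.

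Genes beside the Dppa loci were examined with the RefSeq gene order. Dppa4 and Dppa2 are direct neighbours on chromosome 16, and the next protein-coding gene on the Dppa2 side is Morc1, which encodes an ATPase needed for transposon silencing in male mouse germ cells. Morc1 was at 394, 118 and 201 CPM in ES replicates 1, 2 and 3, at 7.92 CPM in Neuro2A and at 0.341 CPM in MEF. Every ES plate was thus above the others for Dppa4, Dppa2 and Morc1, an order shown by 19.7% of all genes tested. Trat1, the protein-coding gene after Morc1, had 1 read in the ES plates together and 0 in the others. Pseudogene rows nearby did not show that order. Gm7204, beside Dppa4, was at 225 CPM in ES replicate 2 and 355 CPM in MEF. Gm8670, beyond Trat1, was at 40.8, 22.9 and 12.2 CPM in the ES plates and 90.6 CPM in Neuro2A. Near Dppa5 on chromosome 9, Mto1 was higher in every ES plate than in Neuro2A and MEF, while Cgas and Eef1a1 were not. Cgas (row E330016A19Rik) had 0 reads in ES replicate 1 against 1.27 CPM in Neuro2A. Eef1a1 was at 1024 CPM in ES replicate 3 against 2459 CPM in Neuro2A. Next to Dppa5 lies Ooep (row 2410146L05Rik), which encodes a KH-domain-like subunit of the subcortical maternal complex of oocytes. It was at 128, 57.1 and 130 CPM in the ES plates with 0 reads in Neuro2A and MEF. Khdc3 (row 2410004A20Rik), another member of that complex, was at 225, 141 and 146 CPM with 0 reads in the others. DESeq2 called both of these higher in ES against MEF and against Neuro2A (adjusted p from 0.000131 to 0.00347), and edgeR called neither (adjusted p from 0.177 to 0.472). Of the 13 genes with a Dppa name or of this oocyte complex and KH family, 6 had a row and 3 were tested. Of those 3, DESeq2 called 2 higher against MEF and 3 against Neuro2A, beside 3.22% and 8.78% of all genes tested. Dppa3 (Stella), a maternal factor that protects against loss of DNA methylation, had 8 reads in ES replicate 2 and 0 elsewhere.

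The genes most like each Dppa gene were taken as those with the smallest Euclidean distance of log2(CPM + 1) over the 5 plates among 12270 other genes. For Dppa5 these were its own copy Dppa5c (distance 2.62), Dnmt3l, a cofactor of DNA methyltransferases (2.69), and the pluripotency transcription factors Sall4 (2.80), Zfp42 (3.03) and Sox2 (3.81). For Dppa4 the nearest was Lefty2, a secreted inhibitor of Nodal signalling, at 395, 381 and 138 CPM in the ES plates and 0 in the others (1.04). MGC117846 (1.25), Spink3, a secreted protease inhibitor (1.27), LOC666581 (1.56) and Tacstd1, the adhesion molecule now called Epcam (1.58), followed. For Dppa2 they were F630043A04Rik (0.554), LOC676923 (0.607), 0610007P14Rik (0.639), Mif4gd (0.722) and Pknox1, a homeobox transcription factor (0.779). The distances were larger for Dppa5 than for the other 2, so even its nearest genes lay some way from it. With 5 plates, this likeness describes level and the contrast of ES with the rest. Across ES wells at 1000 reads, likeness was weak: the highest mean Pearson r over the 3 plates was 0.334, between Dppa5 and Ftl2, beside a median of 0.0703 over 299 genes. The highest for Dppa4 was 0.177 (Eif2s2). Wells of a plate share depth and barcode effects, and these weak values are given as a description only.

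Of the 34 pluripotency genes listed beside the Dppa genes, 33 had a row and 30 were higher in every ES plate than in Neuro2A and MEF, an order shown by 19.7% of all genes tested. The exceptions were Klf5, Lefty1 and Prdm14. Of the 32 that were tested, DESeq2 called 27 higher against MEF and 24 against Neuro2A, with 0 lower, beside 3.22% and 8.78% of all genes called higher, and edgeR called 0. The median log2 ratio of CPM + 1 was 6.77 against MEF and 7.06 against Neuro2A, beside 0.62 and 0.95 over all genes tested. Nanog, a core pluripotency factor, was at 851, 152 and 442 CPM in the ES plates and at 0 in the others, and Dnmt3l was at 1181, 876 and 1041 CPM.

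Genes reported to depend on Dppa2 and Dppa4, or to be germline genes under promoter methylation, were examined next. Of 33 germline genes, 26 had a row, many of them with few reads. In all, 7 were higher in every ES plate than in both other plates: Sycp3, Syce2, Stag3, Piwil2, Tuba3a, Tuba3b and Rpl10l. All 7 were among the 15 that were tested, and 19.7% of all genes tested showed this order. Apart from Syce2, the 7 had 0 reads in Neuro2A and MEF, so only their ES reads brought them into the test. These shares are therefore not compared. Sycp3, Piwil2 and Rpl10l each had an ES plate with only 1 read. Syce2, a component of the synaptonemal complex of meiosis, was at 446, 312 and 174 CPM in ES replicates 1, 2 and 3, at 0 in Neuro2A and at 6.14 CPM in MEF. DESeq2 called it higher in both comparisons (adjusted p 0.000448 and 1.80e-05), and edgeR did not (0.472 and 0.177). Sycp3, another meiotic chromosome protein, was at 101, 38.1 and 0.469 CPM in the ES plates, where the last value is 1 read, with 0 elsewhere. Dazl, a germ cell RNA-binding protein reported as a Dppa2 and Dppa4 target in mouse ES cells, had 88 reads in 21 wells of ES replicate 3 (41.2 CPM) and 0 reads in all other plates. Of the 15 germline genes tested, DESeq2 called 1 higher against MEF, and 2 higher and 1 lower against Neuro2A. Of all genes tested, it called 3.22% and 8.78% higher. DESeq2 gave no adjusted p for Dazl, Rpl10l, Piwil1, Rec8, Smc1b, Tdrd1, Tex14, Tuba3a and Tuba3b, nor for Piwil2 against MEF. Those genes could not be called, so the counts do not show whether the list differs from all genes. Of 24 genes of the 2-cell-like state, a rare ES cell state that resembles the early embryo and that Dppa2 and Dppa4 help to start, 6 had a row and 3 were tested (Zfp352, Eif1a and Rnf130). None of those 3 had an adjusted p under 0.05 in edgeR or DESeq2, and DESeq2 gave no adjusted p for Zfp352, nor for Rnf130 against MEF. Zfp352, a gene of that state, had 74, 3 and 12 reads in 8, 1 and 1 wells of the ES plates and 0 elsewhere. Of 6 young LINE-1 rows, 3 (L1Md_T, L1Md_Gf and L1Md_F3) were higher in every ES plate than in both other plates, in CPM over gene reads. The share of all repeat rows with this order was not computed. L1Md_A, L1Md_F and L1Md_F2 did not show it. ES replicate 1 was below MEF for each of them, and ES replicate 3 was also below MEF for L1Md_F and L1Md_F2. L1Md_T, a subfamily reported to respond to Dppa2 and Dppa4, was at 1822, 32851 and 1014 CPM over gene reads in the ES plates, 272 CPM in Neuro2A cells and 935 CPM in MEF. Scaled to all reads, repeats included, the values were 1178, 4857 and 523 in the ES plates against 170 and 618, and ES replicate 3 then lay below MEF. On that scale L1Md_Gf and L1Md_F3 were still higher in every ES plate than in both other plates.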

How the data were processed

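Single cells from 5 plates were sorted into wells, tagged with a 5-base barcode by template switching and pooled by plate before PCR, per the labels' protocols. No molecular identifier is mentioned there. The deposited files hold the authors' raw hit counts per feature and barcode, per the readme of the series. The submitters' processing notes list Bowtie, a read aligner. The aligner version, build, gene annotation and handling of reads that match several places are not given in the sources, and no coordinates are printed. Each file had 20 barcode columns that held only 0.

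Repeats (23.02% to 82.4% of reads) and mitochondrial genes were left out of library sizes. CPM is reads over the gene reads of kept wells. Plate sums were tested with edgeR 4.0.16 (TMM, filterByExpr, quasi-likelihood F-test, all 5 plates, 2 residual degrees of freedom, common dispersion 1.50). Alternatives were DESeq2 1.42.0, limma-voom (limma 3.58.1, R 4.3.3) and those in the closing section. Scripts were tested on simulated data. Thinning used 1 fixed seed, and trends were lowess curves (statsmodels 0.14.6, fraction 0.3) over genes read in at least 5% of wells. Other tools were scipy 1.17.1, numpy 2.4.6, matplotlib 3.10.9, pandas 2.3.3 and python 3.11.15. Doublets were not called, since the labels give 1 sorted cell per well. Gene names, synonyms and gene order come from RefSeq (GRCm38.p6), used for names and neighbours alone.

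Genes named are the 3 Dppa genes, the 5 most like each over plates and over cells, and members of fixed lists; a result under this rule is not reported here. Neighbouring genes, the Dppa5 copies, the barcode split over all genes and the reads traced to wells were added after their values were seen. The genes and lists were chosen with earlier results of these data known.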

Additional observations from a re-analysis of the deposited data

Results flagged for a closer look

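Wells under 1000 gene reads were left out of every comparison above. In the 35 such ES wells there were 36 reads of Dppa5, in 15 wells, and 4 reads of Dppa4, in 1 well. Dppa2 had 0 reads there. The 14 such wells of Neuro2A and MEF held 0 reads of the 3 genes, which is why the reads in ES wells are listed. Those 14 wells are few and shallow, so their 0 reads show no difference for Dppa4. Of the 36 Dppa5 reads, 26 came from 12 wells of ES replicate 2, the plate with 30 of the 35 wells.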

How the results depend on the processing

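Of 156 values under alternative settings, 131 kept the direction and the side of the threshold or stayed within the spread. A further 12 moved, 13 crossed to an adjusted p under 0.05 and 0 reversed. Part of this tally was fixed in advance. The permutation test of the shares could not give a p under 0.2. The main edgeR test called 0 genes, so no call could be lost. Levels within the SD over plates counted as kept, so Dppa5 at 1562 CPM beside 3034 CPM did. The calls depended on the tool: against MEF and Neuro2A, DESeq2 called 481 and 1240 genes with the 3 Dppa genes among them (adjusted p for Dppa2, Dppa4 and Dppa5 of 0.0188, 0.000297 and 8.15e-08, and of 0.00755, 6.74e-05 and 4.07e-10), limma-voom 492 (491 of them lower) and 0, and edgeR without a filter on low counts 9 and 82. That unfiltered fit gave adjusted p of 0.0444 for Dppa5 against MEF and of 0.0420 for Dppa4 and 0.0263 for Dppa5 against Neuro2A. With 1 ES plate left out in turn, genes called ranged from 0 to 645 and from 0 to 1438. Adjusted p against MEF ranged from 0.0949 to 0.834 for Dppa2, 0.00202 to 0.834 for Dppa4 and 6.67e-06 to 0.749 for Dppa5, and against Neuro2A from 0.0772 to 0.685, 0.000239 to 0.489 and 1.95e-06 to 0.412. ES replicate 1 was the plate whose removal gave the calls; the cause was not tested. Mean ES CPM ranged from 60.0 to 69.3 for Dppa2, 171 to 432 for Dppa4 and 1982 to 4022 for Dppa5, thinned shares from 3.11% to 3.75%, 8.27% to 12.1% and 65.9% to 78.0%, and the mean spread residual from 0.079 to 0.38 for Dppa4 and -0.45 to 0.019 for Dppa5. The Dppa2 level of 64.2 CPM became 27.1 with repeats and mitochondrial genes in the library size (a setting that also took Dppa4 from 320 to 162 CPM and Dppa5 from 3034 to 1562 CPM), 54.2 as a mean of single wells and, in a setting chosen after seeing the data, 40.9 without the top well of each plate. The Dppa4 residual of 0.20 became 0.77 not thinned and 0.74 at 2000 reads per well. It could not be had without G wells, where Dppa4 was read in under 5% of wells of ES replicates 1 and 2. Depth limits low levels in ES replicate 2, where 3 reads are 11.4 CPM. No paired analysis was possible because Neuro2A and MEF each had a single plate.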
